A study of Microhyla fissipes with 9 samples.

Results

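A set of 87 unigenes was present in every library of Microhyla fissipes tadpoles, a frog of farmland, and stood, in each of the 6 libraries from animals exposed to a glyphosate-based herbicide (GBH), at no less than 2 times the highest of the 3 control libraries. They are 87 of 426250 unigenes listed, a unigene being a cluster of assembled transcripts that stands for a gene or a part of one. The members were selected on the measured expression itself: above 0 in all 9 libraries, a mean over these of at least 5 FPKM (sequenced fragments relative to transcript length and to all fragments mapped in that library), and the lowest exposed value at least 2 times the highest control value. That they were higher in exposed tadpoles is therefore what chose them and not a finding, and their levels against control are given as a description.

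Tadpoles were at Gosner stage 30, when the hind limb bud grows, and were kept for 10 days in 1000 mL of water with GBH at 0 mg/L (the control), 60 mg/L or 90 mg/L, with 20 tadpoles in each of 5 containers per dose. Whole tissue gave 3 poly-A selected RNA libraries at each dose, 9 in all, and all animals came from the same wild collection site. The labels do not say how many tadpoles or which container a library holds, so the spread between libraries may be technical in part. The design also names 120 mg/L, which is not used here.

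Glyphosate blocks a plant and microbial enzyme of aromatic amino acid synthesis that animals lack, and its commercial formulations add surfactants, which are themselves known to harm gill and skin surfaces of aquatic animals. In vertebrates, exposure to foreign chemicals is known to raise detoxifying enzymes and transporters through receptors that sense such compounds, and oxidative stress raises antioxidant enzymes. The deposited table pairs no unigene with a gene name, and unigene sequences were not used here, so it was not tested whether any member belongs to these or to metabolic pathways. Members are given by identifier or by their place in the list, and the tissue label could not be set against marker genes.

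The table holds no read totals. Depth relative to control replicate 1, recovered from steps between low FPKM values, was lowest in replicate 1 at 90 mg/L (0.763) and highest in replicate 3 at 90 mg/L (1.08). Control replicate 2, replicate 2 at 60 mg/L and replicate 3 at 90 mg/L stood apart from the other 6 libraries in an earlier analysis of these data, whatever their dose. They are called the 3 libraries that lie apart, and counts are given with and without them. The 34857 unigenes above 0 in all libraries with a mean of at least 5 FPKM are called detected here. In FPKM as deposited, the typical detected unigene was also higher in exposed libraries. The median log2 ratio of mean FPKM to control was 0.22 for 60 mg/L and 0.20 for 90 mg/L. Over the 87 members it was 2.15 and 2.34, which is 1.93 and 2.14 above that shift. The shift of the detected unigenes depended on scaling. It was -0.14 and -0.16 with libraries scaled by their median ratio over unigenes, and 0.009 and 0.001 after quantile normalization.

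The members made up 0.25% of the detected unigenes, and the mirror rule, lowered at both doses, found 151 (0.433%). Raised unigenes were thus 36.6% of both lists together. That share was 13.5% when libraries were scaled by their median ratio over unigenes (40 raised and 257 lowered), 22.3% after quantile normalization (57 and 199) and 53.0% without the 3 libraries that lie apart (529 and 469). All 40 unigenes raised under that scaling were among the 87, and the group means of 86 of the 87 were still over 2-fold higher than control at each dose. The number raised was also larger when single libraries were left out. It was 208 without control replicate 1, 230 without control replicate 2, 352 without control replicate 3 and 139 when replicate 2 at 60 mg/L was left out. Each library sets a bound, so leaving any out can only loosen the limit on the ratio, and the rule itself favours a larger number. No other set of 3 libraries was left out for comparison. The limits on 0 and on the mean were applied only to the libraries kept. Counts with libraries left out, 529 and 469 among them, are thus not limited to the detected unigenes defined above. In bulk tissue, more cells of a type and more RNA per cell cannot be told apart.

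The same rule was applied to each of the 84 ways to choose 3 of the 9 libraries as the low ones. The 3 controls gave 87, and the other 83 choices gave between 0 and 738 with a median of 3. In 76 of these 83 the number was 10 or lower, and 82 lay below the controls. The single choice above them was formed by the 3 libraries that lie apart, with 738 unigenes at least 2 times higher in every other library. The next choices gave 27 and 23. The controls thus ranked second of 84, behind a set of libraries that the doses do not define. For the mirror rule the controls, with 151, also ranked behind that set, with 236. These choices share libraries and are given as counts, with no test.

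**Figure D1:**
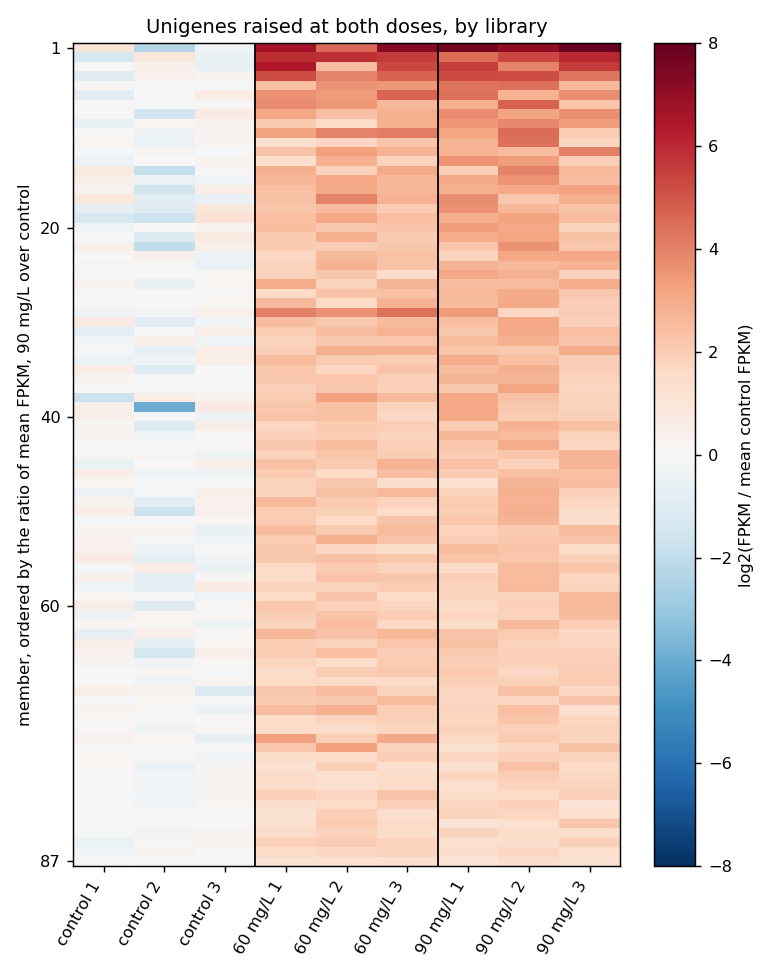
Each row is a member and each column a library, coloured by log2 of its FPKM over the member's mean in controls. Rows are ordered by the ratio of mean FPKM at 90 mg/L to control, from 202.5 at the top to 2.40 at the bottom, and the 6 exposed columns stand above the 3 control columns in every row because the rule requires it.

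The rule makes members lower in control than in exposed tadpoles, so their levels in each group are a description. Averaged over all 9 libraries, their median level was 13.4 FPKM, against 12.0 FPKM over all detected unigenes. The mean control level was under 1 FPKM in 3 members, 1 to 5 FPKM in 58, 5 to 20 FPKM in 20 and at least 20 FPKM in 6. Its median was 3.08 FPKM over the members and 10.8 FPKM over all detected unigenes, while the median level over members was 16.9 FPKM at 60 mg/L and 19.1 FPKM at 90 mg/L, against 12.6 and 12.3 FPKM over all detected unigenes. No control value of a member was under 0.1 FPKM, so the 2 decimals of the table did not set their ratios. Over all 9 libraries, 31 members averaged 5 to 10 FPKM, 26 averaged 10 to 20, 21 averaged 20 to 50, 5 averaged 50 to 100 and 4 averaged over 100 FPKM. FPKM compares levels between unigenes per length of the assembled transcript.

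Most members lay close above the 2-fold limit. The ratio of the lowest exposed to the highest control library was under 2.5 in 45 members, 2.5 to 4 in 34 and at least 4 in 8. It exceeded 8 in 3 members, at 12.7, 11.7 and 11.5, and the fourth stood at 4.69. The members just inside the limit had ratios of 2.01, 2.02 and 2.02, and the detected unigenes just outside it 1.99, 1.98 and 1.98. A further 263 detected unigenes had a ratio of 1.5 to 2. Another 117 met the ratio but averaged 1 to 5 FPKM, and 80 met it with an average of at least 5 FPKM but were listed at 0 in a control, 40 of them in all 3 controls.

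On group means the ratios were larger than the limit asks. At 60 mg/L the ratio of mean FPKM to control ran from 2.29 to 92.6 with a median of 4.43, and 59 of the 87 members reached 4, 10 reached 8 and 6 reached 16. At 90 mg/L it ran from 2.40 to 202.5 with a median of 5.06, and 63 reached 4, 17 reached 8 and 4 reached 16. Both doses reached 4 in 52 members, 8 in 9 and 16 in 4. The median ratio over all detected unigenes was 1.16 for 60 mg/L and 1.15 for 90 mg/L. Both doses are set against the same 3 controls, so a low control mean raises both ratios at once.

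**Figure D2:**
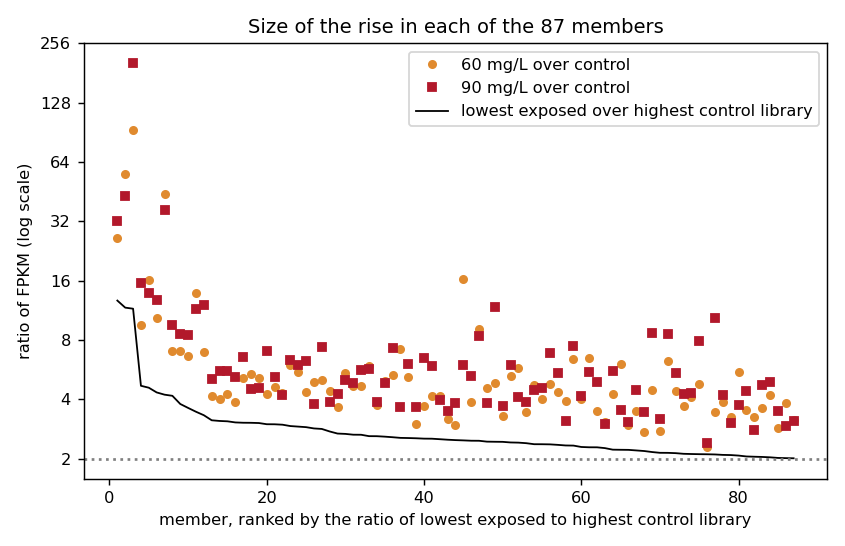
For each of the 87 members, ranked by the ratio of the lowest exposed to the highest control library (black line), the plot gives the ratio of mean FPKM to control at 60 mg/L (circles) and at 90 mg/L (squares) on a log axis. The dotted line marks the 2-fold limit, and 3 members at the left stand clear of the rest on the black line.

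Cluster-47276.173233 had the widest gap between exposed and control libraries. Its FPKM was 1.72, 3.84 and 3.62 in controls, 112.26, 48.76 and 81.92 at 60 mg/L, and 121.46, 116.39 and 58.26 at 90 mg/L. The lowest exposed library, GBH 60 mg/L replicate 2, was 12.7 times the highest control, and the libraries of both doses overlapped.

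Cluster-47276.15079 was low in controls, at 0.17, 0.78 and 0.28 FPKM. Exposed libraries held 24.65, 23.7 and 20.17 FPKM at 60 mg/L and 9.12, 16.88 and 26.92 FPKM at 90 mg/L. Its 60 mg/L libraries were close together, with a coefficient of variation (SD over mean) of 10.3%, while those at 90 mg/L spread on both sides of them at 50.6%.

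Cluster-47276.281997 had the largest ratio of means at both doses, 92.6 at 60 mg/L and 202.5 at 90 mg/L. FPKM was 3.29, 0.33 and 1.36 in controls, 170.05, 37.99 and 252.86 at 60 mg/L, and 333.22, 223.52 and 451.72 at 90 mg/L. GBH 60 mg/L replicate 2 was the lowest exposed library, and GBH 60 mg/L replicate 3 lay above GBH 90 mg/L replicate 2, so that the doses overlapped.

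The 3 most abundant members had ratios to control of 4.43 to 5.98 at 60 mg/L and 5.45 to 7.38 at 90 mg/L. The one with the highest mean stood at 32.73, 40.98 and 49.79 FPKM in controls, 240.8, 183.05 and 198.08 at 60 mg/L, and 422.34, 347.98 and 141.16 at 90 mg/L. Its libraries at 90 mg/L lay on both sides of those at 60 mg/L. The next stood at 46.72, 25.36 and 41.77 FPKM in controls, 295.81, 137 and 247.68 at 60 mg/L, and 207.26, 213.98 and 297.56 at 90 mg/L. In the third the controls themselves were far apart: it stood at 61.81, 2.93 and 73.56 FPKM in controls, control replicate 2 being the low one, at 213.88, 239 and 160.21 at 60 mg/L and at 386.67, 209.55 and 157.19 at 90 mg/L. At the other end, the member with the smallest ratios had even values in each dose, at 16.98, 18 and 18.3 FPKM in controls, 38.84, 38.86 and 44.49 at 60 mg/L and 38.6, 47.93 and 41.32 at 90 mg/L, with ratios of 2.29 and 2.40.

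Spread between libraries varied widely over the members. The coefficient of variation had a median over members of 27.2% in controls, 23.6% at 60 mg/L and 32.4% at 90 mg/L, against 37.7%, 33.3% and 28.1% over all detected unigenes, and the rule favours members with little spread in controls. The steadiest member at 60 mg/L stood at 48.74, 48.49 and 47.78 FPKM there and at 61.54, 61.81 and 65.74 FPKM at 90 mg/L, against 16.46, 13.33 and 19.2 FPKM in controls, so that its 3 dose groups were apart from one another. The least steady at 60 mg/L stood at 33.27, 2.2 and 16.31 FPKM there, at 18.16, 6.07 and 19.16 FPKM at 90 mg/L and at 0.41, 0.52 and 0.25 FPKM in controls.

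**Figure D3:**
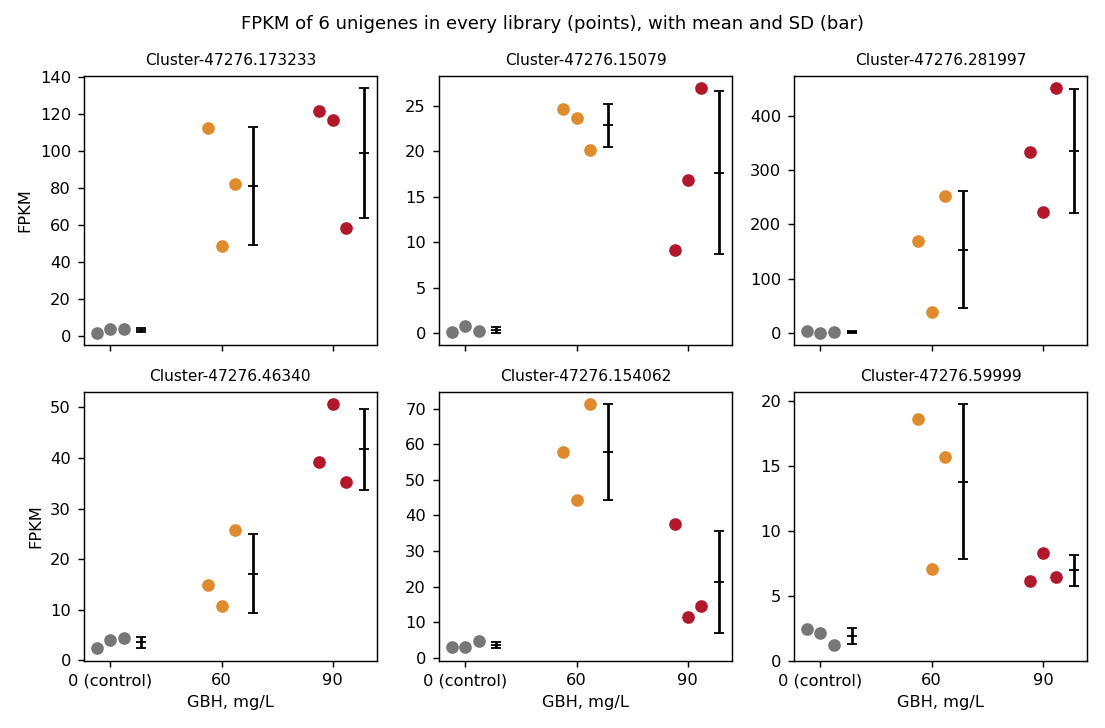
FPKM of 6 members in every library (points) at 0, 60 and 90 mg/L GBH, with the mean and SD of the 3 libraries of each dose beside them; each panel has its own scale. The panels show Cluster-47276.173233 and Cluster-47276.15079, with the widest gap to control, then Cluster-47276.281997 and Cluster-47276.46340, with the largest positive log2 difference between 90 and 60 mg/L in the fit to all 9 libraries, and Cluster-47276.154062 and Cluster-47276.59999, with the largest negative one.

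The libraries that bound the members were not spread evenly. Among the 6 exposed libraries the lowest value was found at 60 mg/L in replicate 1 for 21 members, replicate 2 for 15 and replicate 3 for 6, and at 90 mg/L in replicate 1 for 15, replicate 2 for 4 and replicate 3 for 26. Replicate 3 at 90 mg/L was thus the lowest exposed library in 29.9% of the members, against 13.1% of all detected unigenes. The highest control was replicate 3 for 40 members (46.0%, against 35.1% of all detected unigenes) and replicate 1 for 31 (35.6%, against 26.8%). It was replicate 2 for 16 members (18.4%, against 38.1%). Control replicate 2, which had the lowest summed level of the members, was the lowest control in 41 members (47.1%), close to its 48.1% of all detected unigenes.

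Summed over the members, expression was 597.04, 452.05 and 649.22 FPKM in controls, 2779.08, 2663.21 and 2881.05 FPKM at 60 mg/L, and 3621.69, 3433.43 and 2966.4 FPKM at 90 mg/L. This was 0.0194% ± 0.00393 of all FPKM in controls, 0.0982% ± 0.00757 at 60 mg/L and 0.117% ± 0.0142 at 90 mg/L (SD, n = 3 each). As a share of all FPKM the doses overlapped. GBH 90 mg/L replicate 3 held 0.1002%, below GBH 60 mg/L replicates 1 (0.1005%) and 3 (0.1045%). In FPKM the 3 sums at 90 mg/L lay above the 3 at 60 mg/L. This also held without the 3 members most abundant over all 9 libraries (2605, 2662 and 2370 FPKM at 90 mg/L, against 2029, 2104 and 2275 FPKM at 60 mg/L). Cluster-47276.281997, which had the highest mean at 90 mg/L, stayed in those sums. It held 451.72 FPKM in GBH 90 mg/L replicate 3, against 170.05, 37.99 and 252.86 FPKM at 60 mg/L. With only this member left out, the sum of GBH 90 mg/L replicate 3 fell below all 3 at 60 mg/L, so the order of the sums rested on it. The median member, which the abundant ones do not move, had 18.41, 20.88 and 15.18 FPKM at 90 mg/L and 15.98, 16.89 and 15.7 FPKM at 60 mg/L, and on that measure GBH 90 mg/L replicate 3 was the lowest of the 6. No p-value is given for sums or medians over chosen members.

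**Figure D4:**
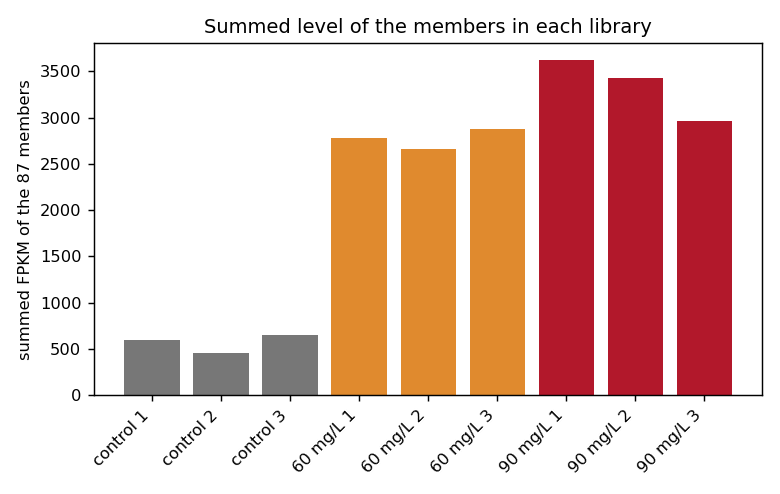
Bars give the summed FPKM of the 87 members in each library, at 0, 60 and 90 mg/L GBH. The controls lie between 452.05 and 649.22 FPKM, the libraries at 60 mg/L between 2663.21 and 2881.05, and those at 90 mg/L between 2966.4 and 3621.69.

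The rule set no difference between 90 and 60 mg/L, since it treats both doses alike. It did use the values of both, because the lowest of the 6 exposed libraries had to reach the limit. The members are thus set against detected unigenes that were not chosen in this way. Mean expression was higher at 90 than at 60 mg/L in 59 of 87 members (67.8%) and lower in 28, while it was higher in 48.5% of all detected unigenes. The median log2 ratio of 90 to 60 mg/L was 0.20 over members, a ratio of 1.15, and -0.01 over all detected unigenes. The median log2 level of the members varied between libraries of the same dose with an SD of 0.161. That is a spread of single libraries, while the shift compares means of 3 libraries, so the sizes are not directly comparable. The shift leaned on 1 library. Without GBH 90 mg/L replicate 2 the median log2 ratio was 0.08, with 50 of 87 members higher at 90 mg/L. Without the 3 libraries that lie apart the median log2 ratio was 0.29, with 64 of 87 members higher.

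By size, 41 members had means at the 2 doses within 1.2-fold of each other (47.1%, against 61.3% of all detected unigenes). Of the others, 37 were at least 1.2-fold higher at 90 mg/L and 9 at least 1.2-fold higher at 60 mg/L. The 37 had median ratios to control of 6.47 for 90 mg/L and 4.34 for 60 mg/L. The 9 had 3.73 for 90 mg/L and 5.81 for 60 mg/L. Which dose has the larger ratio in each group is set by the split itself. A difference of at least 1.5-fold was found in 9 members with more at 90 mg/L (10.3%, against 5.82% of all detected unigenes) and in 3 with more at 60 mg/L (3.45%, against 6.79%).

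The difference was tested unigene by unigene with limma on log2(FPKM + 1), fitted to all 9 libraries and 147577 unigenes averaging 1 FPKM or more. Of the 87 members, 0 passed a Benjamini-Hochberg adjusted p of 0.05 for 90 against 60 mg/L, where 0.044% of all tested unigenes did, and every member had an adjusted p of 1. At an unadjusted p under 0.05 there were 2 members (2.30%), 1 in each direction, against 3.76% of all tested unigenes. The tested unigenes include ones lower than any member. In a fit to the 73298 of them above 0 in all libraries, 0 passed and 2.27% had an unadjusted p under 0.05. In a fit to the 47587 averaging at least 5 FPKM, 2 rises and 2 falls passed and 2.65% had such a p. Of the members, 0 passed in either fit. The 95% interval of the log2 difference had a median width of 1.67 over members, so differences of the size seen in most members were not detectable with 3 libraries a dose. A missed threshold does not show that both doses act alike.

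All 3 libraries at 90 mg/L lay above all 3 at 60 mg/L in 6 members (6.90%, against 3.03% of all detected unigenes), and below them in 1 member (1.15%, against 2.55%). Among the 6 was Cluster-47276.46340, at 39.27, 50.72 and 35.26 FPKM at 90 mg/L and 14.87, 10.74 and 25.75 FPKM at 60 mg/L, against 2.33, 3.9 and 4.4 FPKM in controls. Its log2 difference between 90 and 60 mg/L was 1.31 (SE 0.38, 95% interval 0.45 to 2.17, unadjusted p = 0.00754 and adjusted p = 1 by limma). The rule requires its step from control to 60 mg/L, and the unigene was named for its large difference between the doses. Its order over the 3 groups is therefore a description.

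The member with all libraries lower at the higher dose was Cluster-47276.154062. Its libraries held 37.73, 11.46 and 14.58 FPKM at 90 mg/L and 57.89, 44.3 and 71.35 FPKM at 60 mg/L, against 2.97, 3.09 and 4.62 FPKM in controls. The log2 difference between 90 and 60 mg/L was -1.56 (SE 0.45, 95% interval -2.57 to -0.55, unadjusted p = 0.00706 and adjusted p = 1 by limma). Its ratio to control was 5.97 for 90 mg/L and 16.2 for 60 mg/L.

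Cluster-47276.281997 had the largest positive log2 difference between 90 and 60 mg/L in the fit to all 9 libraries, 1.44 (SE 0.71, 95% interval -0.17 to 3.06, adjusted p = 1 by limma), with the overlap described above. That size rested on GBH 60 mg/L replicate 2, since it was 0.64 without that library and 0.39 without the 3 libraries that lie apart. In these 2 settings Cluster-47276.46340 had the larger difference of the pair, 1.04 and 1.15. Cluster-47276.59999 had the second largest negative one, -0.81 (SE 0.40, 95% interval -1.72 to 0.10, adjusted p = 1 by limma). Its libraries held 6.13, 8.31 and 6.45 FPKM at 90 mg/L and 18.66, 7.09 and 15.7 FPKM at 60 mg/L, against 2.4, 2.1 and 1.23 FPKM in controls, and GBH 60 mg/L replicate 2 lay among the 90 mg/L libraries. The largest ratio of means, 3.00, came from a single library: that member had 10.62, 34.67 and 5.42 FPKM at 90 mg/L and 4.02, 5.39 and 7.49 FPKM at 60 mg/L, and GBH 90 mg/L replicate 2 alone lay far above the rest.

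**Figure D5:**
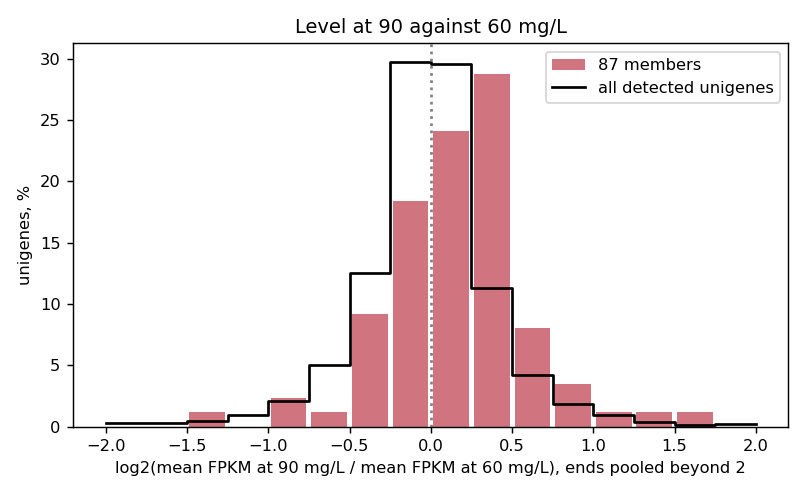
Share of unigenes by the log2 ratio of mean FPKM at 90 mg/L to that at 60 mg/L, in steps of 0.25, for the 87 members (bars) and all detected unigenes (line). The bars are shifted to the right of the line, with medians of 0.20 and -0.01, and both distributions cover 0.

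Against control, the same limma fit called few of the members even though the rule selects on that difference. At 60 mg/L 11 members passed the threshold as higher, where 0.0569% of all tested unigenes did, and at 90 mg/L 18 members, where 0.0739% did. At an unadjusted p under 0.05 there were 86 and 87 members, against 7.60% and 8.91% of all tested unigenes. In all, 7 members passed at both doses and 22 at either, counts that were not made over all tested unigenes. These counts are a description, since both contrasts chose the members, and nothing is read from them. With the replicate number as a block 0 members passed for 60 mg/L and 1 for 90 mg/L. In a fit to the compared groups alone 0 members passed at either dose. Few of all tested unigenes passed in these fits either. With the block these were 0 for 60 mg/L, and 2 rises and 7 falls for 90 mg/L. In the fit to the compared groups they were 0 for 60 mg/L, and 8 rises and 9 falls for 90 mg/L. The counts of members fell by more than 1.5 times when certain libraries were left out. For 60 mg/L the count was then 4 and 5 (control replicates 1 and 3), 4 and 2 (replicates 1 and 3 at 60 mg/L), and 5 and 7 (replicates 1 and 2 at 90 mg/L). For 90 mg/L it was 7 and 10 (control replicates 1 and 3), 11 and 7 (replicates 1 and 3 at 60 mg/L), and 7 and 3 (replicates 1 and 2 at 90 mg/L). Over all tested unigenes the rises at 60 mg/L were then, in the same order, 61, 91, 292, 257, 90 and 101, against 84 with all libraries. At 90 mg/L they were 77, 84, 112, 97, 268 and 160, against 109.

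Some members carried neighbouring identifiers. Of the 87, 85 bore the prefix Cluster-47276, which 99.4% of all detected unigenes share. In 1 pair the numbers after it were consecutive, and in 5 pairs, that one included, they lay within 10 of each other. Of these pairs, 3 came from a run of 3 members. Such pairs were not counted over all detected unigenes, so it is not known whether members neighbour each other more often. The consecutive pair stood at 1.27, 2.39 and 3.55 FPKM and at 2.65, 3.43 and 2.84 FPKM in controls, at 30.38, 25.41 and 60.46 FPKM and at 14.32, 28.53 and 20.36 FPKM at 60 mg/L, and at 51.17, 16.29 and 32.3 FPKM and at 20.69, 16.85 and 47.64 FPKM at 90 mg/L. Within each dose these 2 unigenes ordered the libraries differently. The run of 3 had ratios to control of 3.70, 4.28 and 4.18 at 60 mg/L and 6.47, 5.57 and 5.93 at 90 mg/L, each larger at 90 mg/L. Whether such members are pieces of a single gene was not tested, so 87 unigenes need not be 87 genes.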

How the data were processed

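The authors deposited 1 table of FPKM values per unigene and library, per the labels; its values have 2 decimals. RNA was extracted with Trizol, and the poly-A selected libraries were sequenced as paired ends, per the labels' protocols. Assembler, aligner and counter: not given in the sources used here. All 9 columns were matched to samples by title. Members and lists were chosen with earlier results of these data known.

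The rule was applied to the FPKM as deposited, with no pseudocount. Ratios are of mean FPKM. For tests, limma 3.58.1 (R 4.3.3) was run on log2(FPKM + 1) for unigenes averaging 1 FPKM or more, with 1 mean per dose, empirical Bayes moderation, a trend on mean expression and Benjamini-Hochberg adjustment over all 147577 unigenes tested, two-sided. This scale understates changes of low unigenes. The procedure was tested on simulated data. Relative depth is the inverse of the most frequent ratio to control replicate 1 at 0.2 to 0.3 FPKM. FPKM carries no counts, so no sampling error per value is known. Tables were handled with pandas 2.3.3 and figures drawn with matplotlib 3.10.9.

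Unigenes were named by rule: the 2 with the largest ratio of lowest exposed to highest control library, and the 2 largest differences in each direction for 90 against 60 mg/L among all members, since none passed the threshold. Others are described without an identifier, chosen after their values were seen. Same-numbered libraries count as pairs where all their correlations, after subtracting each dose's mean, exceed 0.1. The pairs of 60 mg/L and control gave 0.104, 0.327 and 0.113 and passed. Those of 90 mg/L with control (0.106, -0.0586 and -0.173) and with 60 mg/L (0.101, -0.0681 and -0.112) did not. The value of 0.327 is of control replicate 2 with GBH 60 mg/L replicate 2, which are both among the 3 libraries that lie apart. The main fit ignores pairs. With the replicate number as a block, 0 members passed for 60 mg/L against control. The meaning of the numbers is not in the labels. Alternatives covered the fold and mean limits, scaling, the pseudocount, filters, the replicate block and leaving out libraries.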

Additional observations from a re-analysis of the deposited data

How the results depend on the processing

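The number raised at both doses was 350, 19 and 8 with a fold of 1.5, 3 and 4, 204 and 56 with a mean of at least 1 and 10 FPKM, 167 with values of 0 allowed in controls, 40 with median-ratio scaling, 57 with quantile normalization (56 of them members) and 529 without the 3 libraries that lie apart (84 of them members). It was 94 to 352 with 1 library left out. Where libraries were left out, the limit on the ratio could only loosen, and the limits on 0 and on the mean were applied only to those kept. A pseudocount of 1 or 0.1 FPKM in the ratio gave 64 and 85. For 90 against 60 mg/L, limma called 0 members in all 20 alternatives run, the replicate block among them (4 members at an unadjusted p under 0.05 with it). The most at an unadjusted p under 0.05 was 16 (18.4% of the members, 12 of them higher at the larger dose), without the 3 libraries that lie apart. The background share in that fit was 6.14%. Leaving out only GBH 90 mg/L replicate 3 gave 9 members (10.3%, 7 of them higher), with a background share of 3.70%. With all libraries the members had the smaller share (2.30%, background 3.76%). That background includes unigenes lower than any member. It was 2.27% in a fit to unigenes above 0 in all libraries and 2.65% in one to unigenes averaging at least 5 FPKM. Members held 2.30% in both of these fits, which used all libraries. The order of the shares thus depended on the libraries used and on the unigenes in the background. The shares were not tested against each other. The median log2 ratio of 90 to 60 mg/L was 0.08 to 0.26 with 1 library left out, and 50 to 63 members were then higher at 90 mg/L. Cluster-47276.173233, with a log2 difference of 0.29 between 90 and 60 mg/L (adjusted p = 1 by limma), was at -0.032 without replicate 2 at 60 mg/L, and at -0.032 to 0.63 with any 1 library left out. The members called higher at 60 mg/L against control, 11, were 19 with no filter on low values, 4 among unigenes above 0 in all libraries, 4 with median-ratio scaling, 7 with quantile normalization, 5 without a trend, 0 with the replicate block and 0 in a fit to the compared groups only; with 1 library left out they were 2 to 12. Those called higher at 90 mg/L against control, 18, were 10 with median-ratio scaling, 8 without a trend, 1 with the replicate block and 0 in a fit to the compared groups only; with 1 library left out they were 3 to 20. Over all tested unigenes, 84 of 147577 passed as higher at 60 mg/L in the main fit. With no filter on low values these were 243 of 426250, and among unigenes above 0 in all libraries 4 of 73298. They were 72 with median-ratio scaling, 77 with quantile normalization and 110 without a trend. At 90 mg/L they were 109 in the main fit, 87 with median-ratio scaling and 122 without a trend. With the block, 0 rises at 60 mg/L and 2 at 90 mg/L passed. In a fit to the compared groups only these were 0 and 8. With the block the members' median log2 difference from control stayed at 1.86 at 60 mg/L and 1.99 at 90 mg/L, with 86 and 87 members at an unadjusted p under 0.05, as without it. The cause of these changes was not tested. FPKM without counts leaves the sampling error of low values unknown.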
